A study of Mus musculus with 23 samples.

Results

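Gene expression in the left ventricle was compared between FVB mice that breathed nicotine aerosol and FVB mice that breathed filtered air, with exposure started at an age of 3 weeks. The members are the 8 libraries whose titles carry those labels, 4 nicotine libraries numbered 2, 3, 5 and 6 and 4 air libraries numbered 1, 2, 4 and 5, out of 23 libraries in the series. The nicotine group received aerosol of the e-cigarette vehicle with nicotine, so that nicotine against air compares vehicle and nicotine together. Used beside them were 3 libraries of the 3-week start that received the vehicle aerosol alone, and the groups that started at 3 months of age with 4 nicotine, 4 vehicle and 4 air libraries. Per the labels, exposure took 4 hours a day on 5 days a week for 3 months in every group, and all mice were FVB, an inbred strain, with no genetic change stated. Left ventricles were flash frozen and RNA was extracted with Trizol. Whether each library is a separate animal is not in the labels, and p-values therefore cover the spread between libraries only, part of which may be technical.

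Nicotine acts on nicotinic acetylcholine receptors, which sit on autonomic neurons and on several other cell types, and it raises the release of catecholamines that reach the heart. The ventricle is made of cardiomyocytes, which hold most of the RNA, and of endothelial cells, fibroblasts, mural cells and macrophages. Capillary endothelial cells rest on a basement membrane of type IV collagen, laminin, nidogen and perlecan, and growing vessels make these proteins together with apelin, neuropilins and the surface protein CD93. Immediate early genes such as the NR4A, FOS and EGR families are transcribed within minutes of a stimulus, stretch or injury, and NF-kB target genes follow inflammatory signals.

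The authors deposited counts for 49315 genes, of which 15500 had enough counts to be tested. Total counts ran from 12297955 to 14713765 per nicotine library and from 13394536 to 17600406 per air library of the 3-week start. Levels are given as CPM, counts scaled to library size and composition, and changes as log2 fold changes, nicotine over air, ± standard error (SE). Adjusted p-values are from edgeR's quasi-likelihood test with Benjamini-Hochberg adjustment over the 15500 genes, in a fit that takes its spread from all 23 libraries, and the threshold was 0.05. Mitochondrial genes held 9.09% to 10.8% of counts in nicotine libraries and 8.35% to 8.98% in air libraries, with no overlap. Within the nicotine group, longer transcripts were under-represented in libraries 2 and 5 relative to libraries 3 and 6. The rank correlation of level with transcript length was -0.346, 0.108, -0.296 and 0.211 in nicotine libraries 2, 3, 5 and 6, against 0.267, -0.064, -0.0402 and -0.0127 in air libraries 1, 2, 4 and 5. Air libraries 1 and 5 stood apart from air libraries 2 and 4, and values without them are given beside the calls and beside other results that they move.

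With all 23 libraries in the fit, 126 genes (0.813% of those tested) passed the threshold, 112 lower (0.723%) and 14 higher (0.0903%) in nicotine libraries than in air libraries. A fit on the 8 libraries alone, in which the spread comes from these 2 groups, gave 0 genes by the same test, with 1408 genes at an unadjusted p under 0.05 and a smallest adjusted p of 0.0863. A fit on the 11 libraries of the 3-week start gave 0 as well, with 1177 genes at an unadjusted p under 0.05, and DESeq2 on all 23 libraries gave 478 genes. The typical spread between replicates, edgeR's biological coefficient of variation, was 0.179 over all 23 libraries, 0.212 over the 8 libraries and 0.106 over the 12 libraries of the 3-month start. Residual degrees of freedom were 17 with all 23 libraries, 6 with the 8 and 8 with the 11. The calls therefore rest on a spread that the steadier 3-month libraries helped to set, and on the degrees of freedom that the other groups added. The part of each was not tested. In the fit on the 8 libraries the adjusted p of the 126 genes ran from 0.0863 to 0.405.

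The 112 lower genes fell into a pattern over the air libraries. In 87 of them air libraries 1 and 5 held the highest and the second highest value of the 8 libraries, which was the case for 12% of all genes tested. Picking genes for high air values can raise this share by itself. Without air libraries 1 and 5, 11 genes passed the threshold (0.071% of those tested), all lower in nicotine libraries, and 8 of them were among the 126. The 8 were Cd93, Col4a1, Col4a2, Col15a1, Nrp2, Apln, Prex1 and Dchs1, and the other members of the 11 were Bub1b, Mest and Col6a1. For all of the 8 but Cd93, air libraries 2 and 4 were the highest air libraries. Leaving out air libraries 1 and 5 enlarges their change by itself. With each of the 8 libraries left out in turn, Cd93 passed in 8 fits, Col4a1 in 7 and Col4a2 in 6. Col15a1 and Prex1 passed in 5, Nrp2 in 4, Apln in 1 and Dchs1 in 0. Of the 112 lower genes, 40 kept at least 75 percent of their log2 fold change without air libraries 1 and 5, 25 kept 50 to 75 percent, and 47 kept under 50 percent. The median log2 fold change of the lower genes was -1.09 with all libraries and -0.63 without those 2. The sign stayed the same in 125 of the 126 genes, and Csrnp1, named for this after its values were seen, turned to 0.12 without them, against -2.26 ± 0.52 (adjusted p = 0.0478) with all libraries. The 14 higher genes had a median of 0.75 with all libraries and 0.61 without them.

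**Figure D1:**
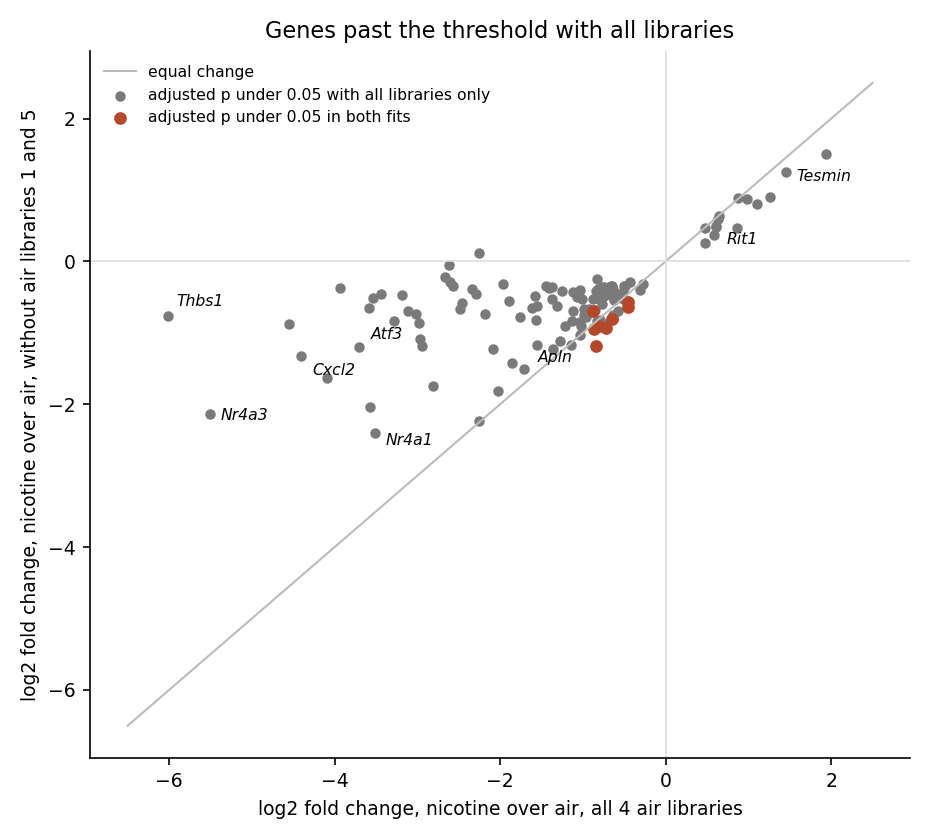
Log2 fold change (nicotine over air) of the 126 genes past the threshold, with all 4 air libraries (horizontal axis) and without air libraries 1 and 5 (vertical axis); the grey line marks equal change. Inducible genes such as Thbs1 (-6.01 and -0.77) lie far above the line, while the 8 genes past the threshold in both fits, in red, lie close to it.

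The collagen genes Col4a1, Col4a2 and Col15a1 of the basement membrane were lower both with and without air libraries 1 and 5. Col4a1 and Col4a2, the chains of the main vascular type IV collagen, lie head to head on chromosome 8 and are transcribed in opposite directions. Their RefSeq promoter windows on GRCm38.p6, 250 bases before to 50 bases after each start, are shown because both genes were lower and share part of this stretch. Capitals mark the 78 bases that both windows hold, each printed on its own strand; Col4a1 is at chr8:11312777-11313076 on the minus strand and Col4a2 at chr8:11312555-11312854 on the plus strand.
Col4a1: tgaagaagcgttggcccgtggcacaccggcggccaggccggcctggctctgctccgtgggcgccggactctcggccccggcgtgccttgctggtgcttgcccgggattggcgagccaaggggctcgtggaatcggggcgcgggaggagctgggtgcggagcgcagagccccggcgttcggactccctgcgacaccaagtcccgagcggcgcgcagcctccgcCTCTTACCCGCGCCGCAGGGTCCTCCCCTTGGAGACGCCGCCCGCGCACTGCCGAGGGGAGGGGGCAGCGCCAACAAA
Col4a2: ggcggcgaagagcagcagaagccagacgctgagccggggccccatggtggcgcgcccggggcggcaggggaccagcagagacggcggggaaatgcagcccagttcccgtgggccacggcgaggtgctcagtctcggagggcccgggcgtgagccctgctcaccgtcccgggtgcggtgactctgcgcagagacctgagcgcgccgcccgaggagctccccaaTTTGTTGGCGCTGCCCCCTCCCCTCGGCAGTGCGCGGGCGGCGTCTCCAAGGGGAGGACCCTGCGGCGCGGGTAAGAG
The annotated starts are at 11312826 for Col4a1 and 11312805 for Col4a2, so that the transcripts overlap by 22 bases. G or C made up 73.7% of the Col4a2 window, against a median of 52.7% over all 32851 windows of the table. No source used here gives the strand setting of the counting, so reads in the overlap cannot be assigned to either gene with certainty.

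Col4a1 had 340.1, 394, 296 and 407 CPM in nicotine libraries 2, 3, 5 and 6, against 632, 714, 660.3 and 616 CPM in air libraries 1, 2, 4 and 5. Col4a2 had 259, 303, 233 and 328 CPM in the same nicotine libraries, against 492, 543, 493 and 437 CPM in the same air libraries. Every nicotine library was below every air library for both genes, and air libraries 1 and 5 were not the highest. The log2 fold change of Col4a1 was -0.87 ± 0.14 (adjusted p = 0.0121 with 23 libraries and 0.158 with 8), and it was -0.95 without air libraries 1 and 5 (adjusted p = 0.0464). The change of Col4a2 was -0.81 ± 0.13 (adjusted p = 0.0121 with 23 libraries and 0.171 with 8), and -0.90 without the 2 air libraries (adjusted p = 0.0464). The vehicle libraries 1, 2 and 4 had 268, 363 and 475 CPM of Col4a1 and 215, 253 and 362 CPM of Col4a2, so that they covered the nicotine range and stayed below every air library.

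Col15a1, a collagen that links basement membranes to the matrix around them, had 76.7, 77.8, 73.6 and 87.2 CPM in nicotine libraries, against 114, 149.6, 147 and 109 CPM in air libraries. Air libraries 2 and 4 were the highest here, and the groups did not overlap. Vehicle libraries 1, 2 and 4 had 73.1, 91.1 and 112.9 CPM of Col15a1, so that vehicle library 4 reached into the air range. Its log2 fold change was -0.72 ± 0.13 (adjusted p = 0.0191 with 23 libraries and 0.218 with 8), and -0.93 without air libraries 1 and 5 (adjusted p = 0.0236).

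Of the 19 basement membrane genes listed, all 19 were tested, and 3 were lower at the threshold, against 0.723% of all genes tested. A negative log2 fold change was found in 16, with a median of -0.26 against 0.02 over all genes tested. Without air libraries 1 and 5 the median was -0.29 and the same 3 genes passed. In 6 of the 19 genes all 4 nicotine libraries were below all 4 air libraries, a pattern that 2.63% of all genes tested showed. Those below the threshold were Lama4, a laminin chain of vessels (-0.30, adjusted p = 0.0798), Nid2, a nidogen (-0.46, adjusted p = 0.112), and Hspg2, which encodes perlecan (-0.28, adjusted p = 0.181), a set chosen after their values were seen. The summed level of the list was 3574 to 4051 CPM in nicotine libraries, 3795 to 4162 CPM in vehicle libraries and 4744 to 4827 CPM in air libraries.

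Genes of angiogenic endothelium gave the call with the smallest p of the comparison. Cd93, a transmembrane protein of endothelial cells, had 87.6, 95.1, 86.8 and 104 CPM in nicotine libraries, against 186, 151, 147 and 203 CPM in air libraries. Every nicotine library was below every air library, and air libraries 1 and 5 were the highest. Its log2 fold change was -0.88 ± 0.12 (adjusted p = 0.0052 with 23 libraries and 0.159 with 8), and -0.69 without air libraries 1 and 5 (adjusted p = 0.0464). Vehicle libraries had 79.4, 108 and 118 CPM, around the nicotine range and below every air library.

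Nrp2, a receptor for semaphorins and vascular endothelial growth factors, had 61.5, 60.5, 49.8 and 69.1 CPM in nicotine libraries, against 87.8, 102, 106 and 81.1 CPM in air libraries. The groups did not overlap, and air libraries 2 and 4 were the highest. Vehicle libraries 1, 2 and 4 had 58.3, 73.8 and 89.9 CPM of Nrp2, so that vehicle library 4 reached into the air range. Its change was -0.65 ± 0.13 (adjusted p = 0.0213 with 23 libraries and 0.277 with 8), and -0.81 without air libraries 1 and 5 (adjusted p = 0.0464). Apln, which encodes the peptide apelin made by tip cells of growing vessels, had 12.9, 15.6, 11.3 and 15.6 CPM in nicotine libraries, against 19.8, 31.2, 30.7 and 17.6 CPM in air libraries. The groups were separate, and air libraries 2 and 4 were again above air libraries 1 and 5. Vehicle libraries 1, 2 and 4 had 13.3, 23.4 and 20 CPM of Apln, so that vehicle libraries 2 and 4 reached into the air range. Its change was -0.84 ± 0.19 (adjusted p = 0.0446 with 23 libraries and 0.356 with 8), and -1.18 without the 2 air libraries (adjusted p = 0.0236).

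**Figure D2:**
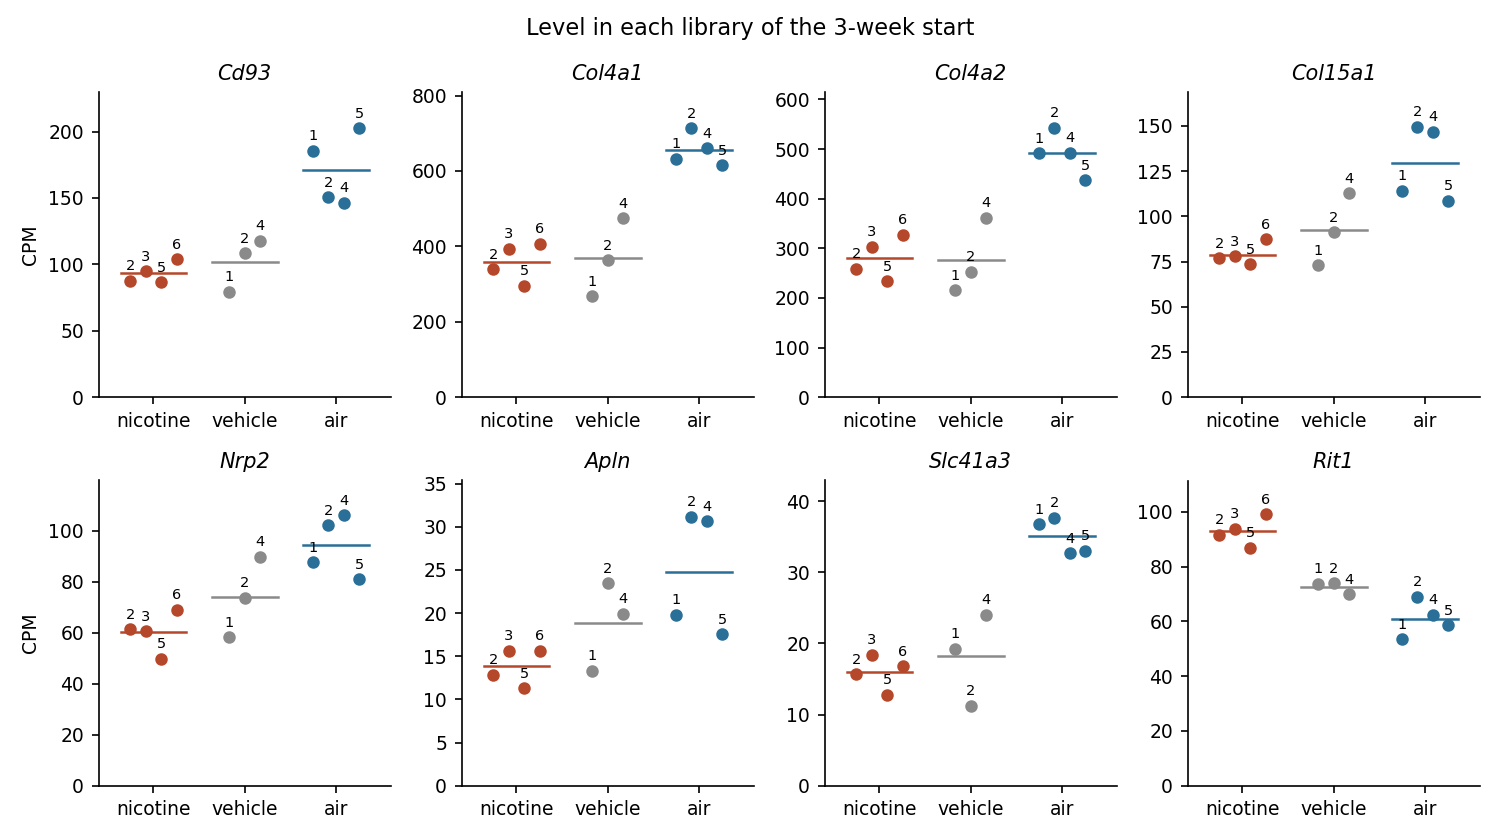
Level in CPM (vertical axis, linear from 0) of 8 genes in each library of the 3-week start, with nicotine, vehicle and air side by side; points are libraries with their replicate number and lines are group means. In each panel the 4 nicotine libraries are separate from the 4 air libraries, as for Slc41a3 with 12.8 to 18.4 CPM in nicotine libraries and 32.7 to 37.7 CPM in air libraries.

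Of the 32 genes listed for angiogenic endothelium, 3 were lower at the threshold, against 0.723% of all genes tested. A negative log2 fold change was found in 21, with a median of -0.12. Without air libraries 1 and 5 the same 3 genes passed, 30 of 32 were negative and the median was -0.27. General endothelial markers gave 0 calls among 15 tested and a median of -0.06, or -0.19 without the 2 air libraries. Of these 15 markers, 10 had a negative change and 5 a positive one with all libraries. Cldn5 had the smallest p of them, at -1.76 ± 0.44 (adjusted p = 0.0611), or -0.79 without the 2 air libraries, and its groups overlapped. Pecam1, the endothelial adhesion molecule CD31, was at -0.24 (adjusted p = 0.38) and Cdh5, which encodes VE-cadherin, at -0.22 (adjusted p = 0.538). The summed level of the 15 markers was 2532 to 3340 CPM in nicotine libraries, 2739 to 4256 CPM in vehicle libraries and 2611 to 3532 CPM in air libraries, with broad overlap. In bulk tissue, fewer cells of a type and less RNA per cell cannot be told apart.

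Enzymes that build and cut the matrix gave 6 lower genes among 29 tested, against 0.723% of all genes tested. Their median log2 fold change was -0.45, or -0.30 without air libraries 1 and 5. Loxl2, a lysyl oxidase that crosslinks type IV collagen, had 15.2, 8.97, 11.6 and 10.03 CPM in nicotine libraries, against 18.7, 21.4, 20.3 and 17.1 CPM in air libraries. Nicotine library 2 was nearest to the air range, and the groups did not overlap. Its change was -0.75 ± 0.16 (adjusted p = 0.0322 with 23 libraries and 0.31 with 8), and -0.88 without the 2 air libraries (adjusted p = 0.104). Plod1, a collagen lysyl hydroxylase, was at -0.31 ± 0.07 (adjusted p = 0.0489) and at -0.40 without them.

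The other 4 calls of this list were led by air libraries 1 and 5. Thbs1, which encodes thrombospondin 1, had 4.24, 4.44, 7.04 and 6.79 CPM in nicotine libraries, against 742, 11.9, 6.94 and 689.7 CPM in air libraries. Air libraries 1 and 5 were far above all others, and air library 4 lay inside the nicotine range. The log2 fold change of -6.01 ± 1.1 (adjusted p = 0.0202 with 23 libraries and 0.351 with 8) was -0.77 without them (adjusted p = 1). Adamts9, a secreted metalloproteinase, had 20.6, 22.3, 14.5 and 22.9 CPM in nicotine libraries, against 127, 31.8, 26.6 and 112 CPM in air libraries. All 4 air libraries were above the nicotine range, the fold change was -1.89 ± 0.40 (adjusted p = 0.0322), and it was -0.56 without air libraries 1 and 5. Adamts4, a related enzyme, ranged from 0 to 0.576 CPM in nicotine libraries and from 0.764 to 9.796 CPM in air libraries, with a change of -4.09 ± 0.89 (adjusted p = 0.0335) that was -1.63 without the 2 air libraries.

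Collagens of the interstitial matrix gave 0 calls among 22 genes tested, with a median of -0.26 and 17 negative values, and a median of -0.34 without air libraries 1 and 5. Col5a1, a fibril-nucleating collagen, was at -0.45 (adjusted p = 0.0698) and Col1a1, the main fibrillar collagen, at -0.44 (adjusted p = 0.32). Postn, a marker of activated fibroblasts, was at -0.22 (adjusted p = 0.748). Col6a1 had 86.6, 76.2, 80.9 and 78.9 CPM in nicotine libraries, against 101, 132, 117 and 79.6 CPM in air libraries. Only air library 5 reached into the nicotine range, the change was -0.41 ± 0.11 with all libraries (adjusted p = 0.0798), and it was -0.64 without air libraries 1 and 5 (adjusted p = 0.0236).

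Further genes with small p kept changes of similar size without air libraries 1 and 5, though only Prex1 and Dchs1 among the 5 passed there. Slc41a3, a magnesium transporter, had 15.7, 18.4, 12.8 and 16.8 CPM in nicotine libraries, against 36.8, 37.7, 32.7 and 33.01 CPM in air libraries. No air library came near the nicotine range, and the vehicle libraries, with 19.3, 11.2 and 24.04 CPM, lay below the air range too. Its change was -1.14 ± 0.23 (adjusted p = 0.0235), it had the smallest adjusted p of the fit on 8 libraries (0.0863), and it was -1.17 without the 2 air libraries (adjusted p = 0.19). It was the single call among 11 magnesium transport genes tested, whose median was -0.16.

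Pde10a, a phosphodiesterase that degrades cyclic AMP and cyclic GMP, had 2.28, 3.13, 2.398 and 3.16 CPM in nicotine libraries, against 6.11, 5.46, 4.65 and 5.97 CPM in air libraries. Vehicle libraries had 4.92, 4.93 and 4.34 CPM, so that here the nicotine libraries were below both other groups. Its change was -1.02 ± 0.16 (adjusted p = 0.0121 with 23 libraries and 0.213 with 8), and -0.91 without air libraries 1 and 5 (adjusted p = 0.104). Myo1e, an unconventional myosin of the cell cortex, had 16.2, 15.3, 15.8 and 16.03 CPM in nicotine libraries, against 24.1, 23.2, 21.5 and 21.3 CPM in air libraries. The nicotine libraries lay within a narrow band below every air library, with a change of -0.51 ± 0.08 (adjusted p = 0.0121 with 23 libraries and 0.248 with 8) and of -0.52 without the 2 air libraries (adjusted p = 0.0785). Prex1, an exchange factor for the GTPase Rac, was at -0.46 ± 0.09 (adjusted p = 0.0202), and Dchs1, a large protocadherin, at -0.45 ± 0.11 (adjusted p = 0.05, below the threshold before rounding). They were at -0.57 and -0.64 without air libraries 1 and 5.

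Plekho2, Scml4, Rassf2 and Cd83 completed the lower genes with the smallest p. Plekho2, a pleckstrin domain protein, ranged from 16.6 to 22.5 CPM in nicotine libraries and from 24.4 to 67.03 CPM in air libraries, with the highest values in air libraries 1 and 5. Its change was -1.31 ± 0.23 (adjusted p = 0.0166), and -0.63 without them. Scml4, a Polycomb-related protein, was at -1.21 ± 0.21 with all libraries and -0.91 without those 2, Rassf2, a Ras-association protein, at -0.81 ± 0.14 and -0.53, and Cd83, a surface protein of activated immune cells, at -1.62 ± 0.29 and -0.65. Bhlhe40, a transcriptional repressor of the circadian clock, was at -1.13 ± 0.21 (adjusted p = 0.0194) and at -0.83 without them, and was the single call among 21 clock genes, whose median was -0.01.

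Immediate early genes had the lowest median of the lists of pathways and processes, and their levels followed air libraries 1 and 5. Of 27 tested, 9 were lower at the threshold, against 0.723% of all genes tested, and 25 had a negative log2 fold change, with a median of -1.57. Without air libraries 1 and 5 the median was -0.53, 22 were negative and 0 passed. In 1 of the 27 genes the 4 nicotine libraries were all below the 4 air libraries, against 2.63% of all genes tested.

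Nr4a3, an orphan nuclear receptor, had 2.61, 2.303, 3.33 and 2.92 CPM in nicotine libraries, against 304, 19.3, 4.44 and 178 CPM in air libraries. Air libraries 1 and 5 were highest, air library 2 was intermediate, and air library 4 was just above the nicotine range. Its change was -5.5 ± 0.91 (adjusted p = 0.0121 with 23 libraries and 0.292 with 8), and -2.13 without air libraries 1 and 5 (adjusted p = 0.207). Atf3, a stress-induced transcription factor, had 4.24, 3.87, 7.74 and 4.18 CPM in nicotine libraries, against 141, 18.5, 3.68 and 99.1 CPM in air libraries. Air library 4 was the lowest of the 8, the change was -3.71 ± 0.71 (adjusted p = 0.0213 with 23 libraries and 0.356 with 8), and it was -1.2 without the 2 air libraries. Fosl2, a subunit of the AP-1 factor, was at -2.46 ± 0.46 (adjusted p = 0.0202) and at -0.58 without them. Arc, a synaptic immediate early gene also induced in other tissues, was at -3.94 ± 0.85 (adjusted p = 0.0356) and at -0.37 without them.

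The windows of Nr4a1 and Nr4a3 are shown because they hold 4 copies each of the half-site of the cyclic AMP response element, TGACG on either strand, marked in capitals. They are RefSeq windows on GRCm38.p6, Nr4a1 at chr15:101266596-101266895 on the plus strand and Nr4a3 at chr4:48045055-48045354 on the plus strand.
Nr4a1: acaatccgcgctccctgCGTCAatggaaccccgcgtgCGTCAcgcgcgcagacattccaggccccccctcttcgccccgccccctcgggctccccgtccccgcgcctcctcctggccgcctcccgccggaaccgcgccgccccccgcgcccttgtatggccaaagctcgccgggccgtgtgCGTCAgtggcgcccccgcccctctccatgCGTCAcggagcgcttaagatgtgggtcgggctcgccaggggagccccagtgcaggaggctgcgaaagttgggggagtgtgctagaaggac
Nr4a3: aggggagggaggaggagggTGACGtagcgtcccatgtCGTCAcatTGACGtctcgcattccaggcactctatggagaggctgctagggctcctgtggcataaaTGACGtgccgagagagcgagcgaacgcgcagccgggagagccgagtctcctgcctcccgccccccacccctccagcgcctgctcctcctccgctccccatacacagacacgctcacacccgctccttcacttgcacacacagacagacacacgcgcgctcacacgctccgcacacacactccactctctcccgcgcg
TGACG stood in 20.8% of all 32851 windows, and 4 or more copies in 0.231%. Of the 27 immediate early genes tested, 21 had a window, and 15 of these (71.4%) held the motif, against 23% of all genes with a window. A gene with several windows counted if any of them held it. A match describes the letters in the window and does not show that a factor binds there. The share describes the list and not its change with nicotine. Nr4a1, another orphan nuclear receptor, named here for its promoter after its values were seen, had 21.99, 13.6, 45.7 and 12.6 CPM in nicotine libraries, against 387, 227, 16.7 and 437 CPM in air libraries. Air library 4 fell inside the nicotine range, the change was -3.51 ± 0.77 (adjusted p = 0.0405 with 23 libraries and 0.345 with 8), and it was -2.4 without air libraries 1 and 5.

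The 12 libraries of the 3-month start give a further view of these levels. Nr4a3 was at 66.3 to 230.3 CPM in nicotine, 109.9 to 207 CPM in vehicle and 79.9 to 154 CPM in air libraries of that age, and Thbs1 at 349 to 1023 CPM in nicotine, 411 to 719 CPM in vehicle and 619 to 946 CPM in air libraries. Air libraries 1 and 5 of the 3-week start were within or above these ranges for Nr4a3 and within them for Thbs1, while the other 9 libraries of that start were far below. In 20 of the 27 immediate early genes all 4 nicotine libraries of the 3-week start were below all 12 libraries of the 3-month start, which 3.21% of all genes tested showed. The 3 vehicle libraries were all below in 14 of the 27 (51.9%, against 4.95% of all genes). Air libraries 1, 2, 4 and 5 singly were below all 12 in 9, 18, 24 and 1 of the 27, or 33.3%, 66.7%, 88.9% and 3.7%, against 11%, 13.8%, 14% and 8.66% of all genes. The 112 lower genes were picked by the nicotine and air values of these same 3-week libraries. Their shares for those groups are therefore partly fixed by the selection. In 92 of the 112 (82.1%) all 4 nicotine libraries were below all 12 libraries of the 3-month start, against 3.21% of all genes. All 3 vehicle libraries were below in 65 of the 112 (58%), air library 2 in 55 (49.1%), air library 4 in 61 (54.5%), air library 1 in 4 (3.57%) and air library 5 in 0. This comparison was added after the data were seen, and the starts differ in the age of the mice.

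**Figure D3:**
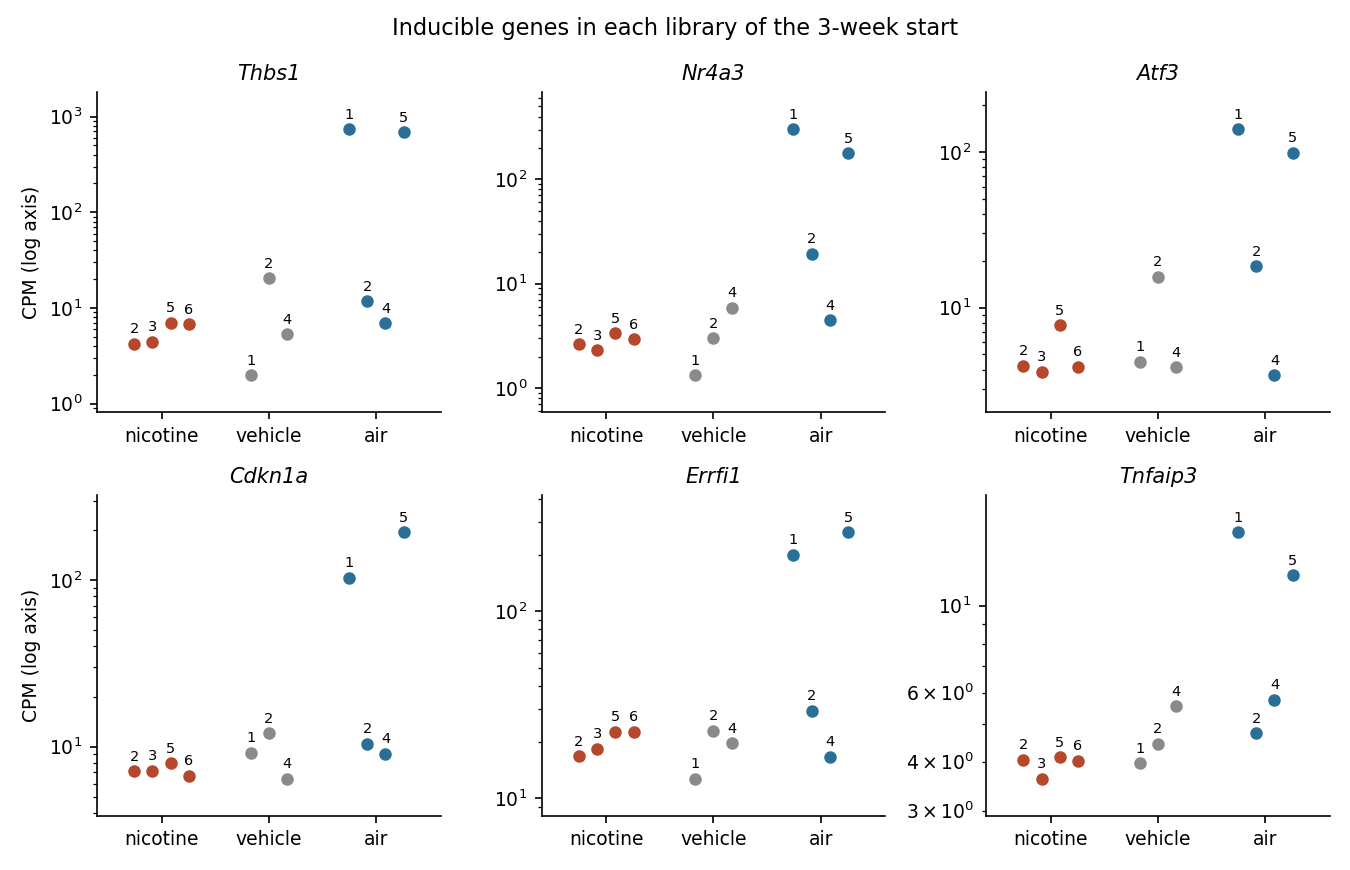
Level in CPM (vertical axis, log scale) of 6 inducible genes in each library of the 3-week start, nicotine, vehicle and air side by side, each point a library with its replicate number. Air libraries 1 and 5 stand above all others, for example at 742, 11.9, 6.94 and 689.7 CPM of Thbs1 in air libraries 1, 2, 4 and 5, against 4.24 to 7.04 CPM in nicotine libraries.

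Targets of NF-kB, cytokines and adhesion molecules gave 6 lower genes among 28 tested, against 0.723% of all genes tested. Their median was -0.77, with 27 negative values. With those 2 air libraries left out the median was -0.34 and 0 passed. In 9 of the 28 genes all 4 nicotine libraries were below all 4 air libraries, against 2.63% of all genes tested. Tnfaip3, which encodes the NF-kB inhibitor A20, had 4.05, 3.62, 4.10001 and 4.03 CPM in nicotine libraries, against 15.4, 4.72, 5.76 and 11.9 CPM in air libraries. All 4 air libraries were above the nicotine range, with a change of -1.25 ± 0.26 (adjusted p = 0.0319 with 23 libraries and 0.366 with 8), or -0.42 without air libraries 1 and 5. Nfkb2, a subunit of the factor itself, had 31.5, 31.9, 30.7 and 29.8 CPM in nicotine libraries, against 47.6, 38.6, 38.7 and 50.1 CPM in air libraries. The groups did not overlap, with a change of -0.50 ± 0.11 (adjusted p = 0.0335 with 23 libraries and 0.334 with 8), or -0.34 without the 2 air libraries. Sele, the endothelial leukocyte adhesion molecule E-selectin, was at -2.98 ± 0.64 (adjusted p = 0.0335), or -0.86 without them. Cxcl2, a neutrophil-attracting chemokine, had 0.261, 0.0823, 0.232 and 0.158 CPM in nicotine libraries, against 9.56, 0.472, 0.486 and 6.11 CPM in air libraries. At so few counts the nicotine values are close to 0, and the change was -4.4 ± 0.99 (adjusted p = 0.043), or -1.33 without air libraries 1 and 5.

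The windows of Cxcl2, Tnfaip3 and Nfkb2 are shown because they hold the NF-kB motif, GGG, then any 2 bases, then TTTCC, on either strand, marked in capitals. They are RefSeq windows on GRCm38.p6, Cxcl2 at chr5:90903649-90903948 on the plus strand, Tnfaip3 at chr10:19015361-19015660 on the minus strand and Nfkb2 at chr19:46304487-46304786 on the plus strand.
Cxcl2: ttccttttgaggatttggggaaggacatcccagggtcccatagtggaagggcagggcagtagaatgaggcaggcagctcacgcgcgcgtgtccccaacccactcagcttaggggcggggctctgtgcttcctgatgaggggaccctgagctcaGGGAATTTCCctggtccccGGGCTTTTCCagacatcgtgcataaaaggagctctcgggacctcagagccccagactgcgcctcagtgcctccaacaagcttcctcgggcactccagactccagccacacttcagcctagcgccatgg
Tnfaip3: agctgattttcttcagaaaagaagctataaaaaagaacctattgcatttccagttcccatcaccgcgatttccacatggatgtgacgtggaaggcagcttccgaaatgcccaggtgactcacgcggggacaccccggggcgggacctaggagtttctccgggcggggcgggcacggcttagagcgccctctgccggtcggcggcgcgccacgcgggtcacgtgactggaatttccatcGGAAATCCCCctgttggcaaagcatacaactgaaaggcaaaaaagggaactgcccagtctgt
Nfkb2: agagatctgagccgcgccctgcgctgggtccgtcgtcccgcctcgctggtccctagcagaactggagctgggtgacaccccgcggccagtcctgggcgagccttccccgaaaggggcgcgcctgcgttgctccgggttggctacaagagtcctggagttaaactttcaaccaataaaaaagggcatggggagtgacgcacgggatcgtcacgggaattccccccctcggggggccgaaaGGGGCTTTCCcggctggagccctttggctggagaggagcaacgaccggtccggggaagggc
The motif stood in 1.63% of all windows. Of the 28 listed genes tested, 22 had a window, and 7 of these (31.8%) held the motif, against 1.89% of all genes with a window. The list was drawn up to hold NF-kB targets, which favours a high share. The share therefore describes the list and not its change with nicotine, and a match does not show that a factor binds. A gene with several windows counted if any of them held the motif. For Tnfaip3 and Nfkb2 the first window listed is shown.

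Neutrophil markers were highest in the same 2 air libraries. Of 13 listed, 6 had enough counts to be tested, 0 passed, and the median was -2.70, or 0.02 without air libraries 1 and 5. Their summed level was 1.82 to 3.09 CPM in nicotine libraries, 2.43 to 2.91 CPM in vehicle libraries, and 13.8, 2.52, 3.05 and 10.8 CPM in air libraries 1, 2, 4 and 5. S100a9, an abundant neutrophil protein, had 0.1305, 0.329, 0 and 0.158 CPM in nicotine libraries, against 4.63, 0.262, 0.0694 and 2.48 CPM in air libraries. Of the markers not tested, Ly6g, Elane, Mpo and Camp had at most 3 counts in any library of the series. Their part in the difference of the NF-kB targets was not tested.

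Feedback genes of growth factor signalling, listed together with Rit1, gave 2 lower genes and 1 higher gene among 14 tested. The higher gene was Rit1, which is a GTPase of the Ras family and not a feedback gene. Over all genes tested the shares were 0.723% and 0.0903%. The median of the list was -0.32, or -0.11 without air libraries 1 and 5. Spry4, an inhibitor of receptor tyrosine kinase signalling, had 12.1, 12.01, 12.1 and 12.6 CPM in nicotine libraries, against 93.5, 19.1, 12.3 and 122 CPM in air libraries. Its change was -2.34 ± 0.49 (adjusted p = 0.0319), or -0.39 without air libraries 1 and 5. Errfi1, an inhibitor of the epidermal growth factor receptor, was at -2.66 ± 0.56 (adjusted p = 0.0322), or -0.22, and air library 4 was the lowest of the 8 libraries. Cdkn1a, which encodes the cell cycle inhibitor p21, had 7.11, 7.16, 7.97 and 6.71 CPM in nicotine libraries, against 103, 10.4, 9.09 and 193 CPM in air libraries. The groups did not overlap, but air libraries 1 and 5 were far above the other air libraries. Its change was -3.44 ± 0.71 (adjusted p = 0.0319 with 23 libraries and 0.362 with 8), or -0.45 without them. It was the single call among 14 genes of p53 and growth arrest, whose median was -0.13.

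Genes of the stressed cardiomyocyte gave 2 lower genes among 17 tested, against 0.723% of all genes tested. Their median was -0.11, or 0.08 without air libraries 1 and 5. Rcan1, a calcineurin inhibitor, was at -1.12 ± 0.25 (adjusted p = 0.0394), or -0.43 without the 2 air libraries. Abra, an actin-binding protein of striated muscle, was at -1.04 ± 0.24 (adjusted p = 0.0446), or -0.40. Nppb, the natriuretic peptide BNP, had 205, 181, 209 and 152 CPM in nicotine libraries, against 387, 441, 195 and 386 CPM in air libraries. Only air library 4 reached into the nicotine range, the change was -0.92 ± 0.25, and it did not pass (adjusted p = 0.0788), or -0.79 without air libraries 1 and 5. Nppa, the atrial natriuretic peptide, was at -0.88 ± 0.33 (adjusted p = 0.233), or -0.35 without them, and its nicotine libraries were all below its air libraries. Acta1, skeletal actin, was at -1.07 ± 0.37 (adjusted p = 0.188), or -0.09 without air libraries 1 and 5.

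Contractile genes gave few calls. Among 20 sarcomere genes tested, Actc1, cardiac actin, was the single call, with 7503, 7552, 6552 and 7488 CPM in nicotine libraries, against 11888, 8459, 9049.6 and 9923 CPM in air libraries. The groups did not overlap, and the change was -0.43 ± 0.10 (adjusted p = 0.05, below the threshold before rounding), or -0.29 without air libraries 1 and 5. Myh6 and Myh7, the cardiac myosin heavy chains, were at -0.08 ± 0.12 and 0.23 ± 0.17 (adjusted p = 0.835 and 0.598), or 0.10 and 0.21 without the 2 air libraries. Atp2a2, which encodes the calcium pump SERCA2, had 7059, 16421, 7550.0 and 17518 CPM in nicotine libraries, against 21551, 10416, 11435 and 13144 CPM in air libraries. Its nicotine libraries 2 and 5 were well below libraries 3 and 6, the same split as in the correlation of level with transcript length, and the change was -0.22 ± 0.31 (adjusted p = 0.806), or 0.13 without air libraries 1 and 5. Calcium handling and ion channel genes gave 0 calls among 17 and 20 tested, with medians of -0.16 and -0.12, or 0.04 and 0.01 without those 2. Stim1, a calcium sensor, was at -0.25 (adjusted p = 0.27), and Kcna5, a potassium channel, at -0.83 (adjusted p = 0.231), or -0.22 and 0.07 without them.

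Far fewer genes passed as higher in nicotine libraries. For all 14 of them every nicotine library was above every air library, which their selection favours, a pattern of 2.57% of all genes tested. The imbalance is one of the calls, since 398 of all 15500 genes lay higher without overlap and 407 lower, and 46.8% of all genes had a negative change. Rit1, a GTPase of the Ras family, had 91.5, 93.8, 86.9 and 99.0005 CPM in nicotine libraries, against 53.5, 68.9, 62.5 and 58.6 CPM in air libraries. Vehicle libraries, with 73.8, 73.8 and 69.9 CPM, lay between the groups. Its change was 0.61 ± 0.10 (adjusted p = 0.0121 with 23 libraries and 0.176 with 8), or 0.48 without air libraries 1 and 5 (adjusted p = 0.207). Tesmin, a metallothionein-like protein known from testis, had 5.74, 5.43, 5.42 and 6.63 CPM in nicotine libraries, against 1.42, 2.62, 2.15 and 2.28 CPM in air libraries. Its nicotine values lay close together, with a change of 1.45 ± 0.27 (adjusted p = 0.0202 with 23 libraries and 0.158 with 8), or 1.25 without the 2 air libraries. Phactr1, a regulator of actin and protein phosphatase, had 21.9, 19.2, 17.9 and 18.6 CPM in nicotine libraries, against 12.3, 13.01, 12.5 and 12.4 CPM in air libraries. The air values were nearly equal, and the change was 0.63 ± 0.12 (adjusted p = 0.0202 with 23 libraries and 0.171 with 8), or 0.59.

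Epor, the erythropoietin receptor, had 6.26, 5.02, 4.95 and 5.92 CPM in nicotine libraries, against 2.84, 3.04, 2.92 and 2.42 CPM in air libraries, a change of 0.98 ± 0.19 (adjusted p = 0.0202 with 23 libraries and 0.176 with 8), or 0.87 without air libraries 1 and 5. Markers of red blood cells lay on the same side. Of 7 tested, 0 passed, all 7 had a positive change, and the median was 0.84, or 0.83 without air libraries 1 and 5. Their summed level was 1115 to 1448 CPM in nicotine libraries, 487 to 2393 CPM in vehicle libraries and 527 to 956 CPM in air libraries. The globins Hba-a1 (0.83, adjusted p = 0.331) and Hbb-bs (0.84, adjusted p = 0.344) hold most of it, and near-identical globin copies make their counts uncertain. The part of blood content in the change of Epor was not tested.

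Inmt, an enzyme that methylates indole amines, was at 1.11 ± 0.24 (adjusted p = 0.0359), and Bcl11b, a zinc finger transcription factor, at 0.87 ± 0.20 (adjusted p = 0.0478). Zc3h6 and Zfp606, both zinc finger proteins, were at 0.64 ± 0.13 (adjusted p = 0.0311) and 0.86 ± 0.20 (adjusted p = 0.0489). Fbxo9, an F-box protein, was at 0.48 ± 0.11 (adjusted p = 0.0446), and Vmac, a coiled-coil protein, at 0.58 ± 0.14 (adjusted p = 0.0495). These 6 genes were at 0.80, 0.89, 0.64, 0.47, 0.26 and 0.37 without air libraries 1 and 5.

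The other higher genes named were mt-Tp, the mitochondrial tRNA for proline, and mt-Nd6, a subunit of respiratory complex I. The gene mt-Tp had 81.5, 80.4, 85.6 and 82.03 CPM in nicotine libraries, against 58.2, 57.2, 59.97 and 62.6 CPM in air libraries. Its change was 0.47 ± 0.09 (adjusted p = 0.0262 with 23 libraries and 0.176 with 8), or 0.47 without air libraries 1 and 5. The gene mt-Nd6 was at 0.61 ± 0.14 (adjusted p = 0.0478 with 23 libraries and 0.25 with 8), or 0.49 without them. Both lie on the strand of the mitochondrial genome that carries few genes, opposite transcripts of the other strand, and without the strand setting reads from the strands cannot be told apart. All 13 mitochondrially encoded genes tested had a positive change, with a median of 0.20 and 1 call. The 35 nuclear genes of oxidative phosphorylation gave 0 calls, 32 positive changes and a median of 0.12, with Sdhb, a subunit of complex II, at 0.20 (adjusted p = 0.452).

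Fatty acid oxidation, the main fuel pathway of the heart, gave 0 calls among 31 genes tested, with a median of 0.06 and 24 positive changes. The median was 0.16, with 0 of 31 negative, without air libraries 1 and 5. Ucp3, a mitochondrial carrier protein induced with fatty acid use, had 46.7, 74.2, 43.8 and 80.1 CPM in nicotine libraries, against 32.9, 32.0019, 18.9 and 24.9 CPM in air libraries. Every nicotine library was above every air library and every vehicle library (16.4 to 23.7 CPM), but the nicotine values spread widely, and the change of 1.17 ± 0.35 did not pass (adjusted p = 0.113). Pdk4, which restrains glucose oxidation, had 205, 427, 272 and 466 CPM in nicotine libraries and 567, 412, 132 and 711 CPM in air libraries, with a change of -0.41 ± 0.38 (adjusted p = 0.69), or 0.31 without air libraries 1 and 5. Vehicle libraries were lower, at 46.5, 113 and 106 CPM. The 25 genes of glucose use gave 0 calls and a median of -0.07, or 0.07 without the 2 air libraries, with Pfkfb1, a regulator of glycolysis, at 0.56 (adjusted p = 0.163).

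Genes of cholinergic and adrenergic signalling, the routes by which nicotine reaches the heart, gave 1 call among 24 tested, Pde10a, and a median of -0.04, or 0.05 without air libraries 1 and 5. Most nicotinic receptor subunits were near 0. Chrna5, Chrna6 and Chrnb3 had 0 counts in all 23 libraries, and Chrna3, Chrna4, Chrna7, Chrna9 and Chrnb4 had at most 4. Chrnb1, the subunit of muscle receptors, was at -0.39 (adjusted p = 0.586), and Chrnb2 at 0.12 (adjusted p = 0.893). Chrm2, the muscarinic receptor of the heart, was at 0.07 (adjusted p = 0.954) and Adrb1, its main adrenergic receptor, at 0.26 (adjusted p = 0.757). These receptors are named for their role, with their values known.

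Genes that handle aldehydes and foreign compounds gave 0 calls among 27 tested, with a median of 0.16. Fmo2, a flavin monooxygenase, had 106, 90.9, 118 and 99.5 CPM in nicotine libraries, against 76.4, 34.7, 59.9 and 81.3 CPM in air libraries, with a change of 0.72 ± 0.23 (adjusted p = 0.149), or 1.12 without air libraries 1 and 5. Cyp1a1, the classic target of the aryl hydrocarbon receptor, had at most 2 counts in any of the 23 libraries. Antioxidant targets of NRF2 gave 0 calls among 30 tested and a median of 0.05, with Srxn1, sulfiredoxin, at -0.38 (adjusted p = 0.15), or -0.19 without the 2 air libraries. Heat shock and chaperone genes (0 of 29, median -0.16), the integrated stress response (0 of 19, median -0.16) and hypoxia targets (0 of 21, median -0.12) gave no call either. Negative changes were found in 28, 14 and 16 genes of these lists, against 46.8% of all genes tested. Without air libraries 1 and 5 they were found in 23, 14 and 13. Within these lists the smallest p belonged to Hspa1a (-1.34, adjusted p = 0.362), Ppp1r15a (-0.98, adjusted p = 0.0813) and P4ha2 (-0.34, adjusted p = 0.0634). These genes were at -1.97, -0.35 and -0.22 without air libraries 1 and 5.

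Glucocorticoid targets changed side with the libraries used. Of 20 tested, 2 were lower at the threshold, against 0.723% of all genes tested. They were Cdkn1a and Errfi1, which other lists hold too, and the median of the list was -0.62. Without air libraries 1 and 5 the median was 0.27, 3 of 20 were negative and 0 passed. Interferon genes gave 0 calls among 27, with a median of 0.08, or -0.16 without the 2 air libraries. Rnf213, an interferon-induced ubiquitin ligase of vessels, was at -0.35 ± 0.09 (adjusted p = 0.074).

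For cell cycle genes the change was larger without air libraries 1 and 5. With all libraries 0 of 30 passed, 26 were negative and the median was -0.42. Without the 2 air libraries all 30 were negative, the median was -0.81, and 1 passed. This was Bub1b, a mitotic checkpoint kinase, with 0.783, 0.987, 0.464 and 1.11 CPM in nicotine libraries, against 0.987, 2.203, 3.19 and 0.537 CPM in air libraries. Air libraries 2 and 4 held the highest values and air libraries 1 and 5 lay inside the nicotine range, so that the change was -1.05 ± 0.39 with all libraries (adjusted p = 0.235) and -1.7 without the 2 (adjusted p = 0.0464). Ccnd1, a G1 cyclin, was at -0.53 ± 0.18 (adjusted p = 0.171), or -0.75 without them. Mest, an imprinted gene of fetal growth, had 8.87, 8.39, 3.71 and 7.34 CPM in nicotine libraries, against 7.34, 16.2, 17.98 and 6.24 CPM in air libraries, a change of -0.75 ± 0.29, or -1.28 without the 2 air libraries (adjusted p = 0.0464).

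**Figure D4:**
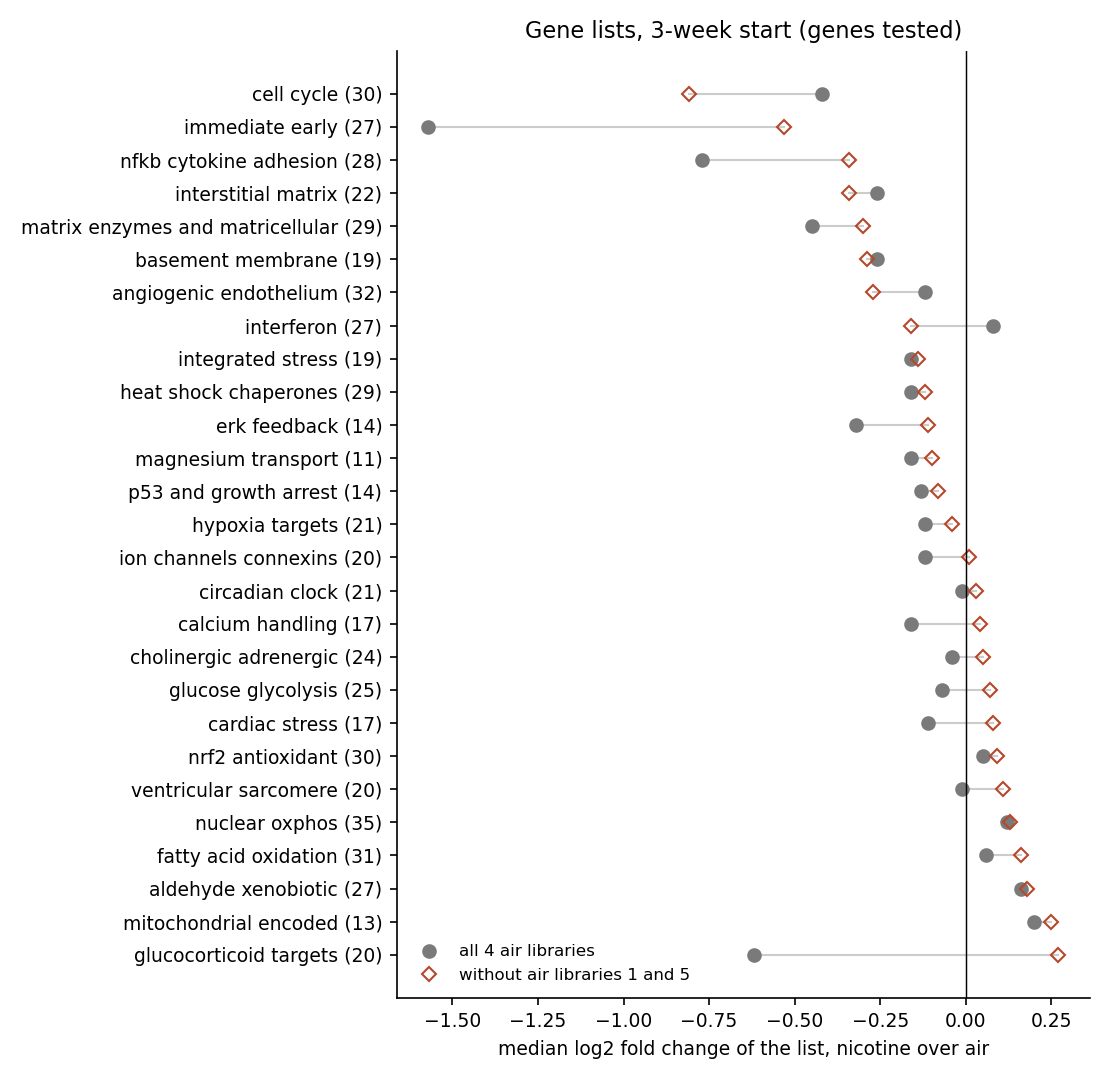
Median log2 fold change (nicotine over air) of the 27 gene lists of pathways and processes, with all 4 air libraries (filled circles) and without air libraries 1 and 5 (open diamonds); the number of genes tested is in brackets. Immediate early genes lie at -1.57 and -0.53 and cell cycle genes at -0.42 and -0.81, while basement membrane genes lie at -0.26 and -0.29.

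Markers of cell types gave 1 call, Actc1, over all lists, and markers of ventricular cardiomyocytes were abundant in every library. Ventricular cardiomyocyte markers summed to 81845 to 92224 CPM in nicotine libraries and 80012 to 100623 CPM in air libraries. Markers of fibroblasts (0 of 10, median -0.02), mural cells (0 of 11, median 0.03) and macrophages (0 of 12, median -0.31, or -0.15 without air libraries 1 and 5) showed no call. Lyve1, a marker of resident macrophages and lymphatic vessels, was at -0.72 (adjusted p = 0.0884), or -0.24 without air libraries 1 and 5. Mesothelial Wt1 was at -1.53 (adjusted p = 0.0861), or -0.43 without them, and was highest in air libraries 1 and 5, at 28.3, 11.8, 9.51 and 43.7 CPM in air libraries 1, 2, 4 and 5, against 6.95 to 9.75 CPM in nicotine libraries. Atrial markers summed to 158 to 203 CPM in nicotine libraries, and to 450.4, 189, 199 and 298 CPM in air libraries 1, 2, 4 and 5. Nppa alone held 68 to 118 CPM of this in nicotine libraries and 121 to 256 CPM in air libraries. The mean log2 CPM of the atrial markers was 2.18, 2.55, 3.9 and 3.6 in nicotine libraries 2, 3, 5 and 6. It was 5.15, 2.19, 2.15 and 2.88 in the air libraries, so that the atrial signal was uneven within both groups. Lung surfactant genes Sftpc, Sftpa1 and Sftpd had at most 2 counts in any library, and Sftpb had up to 12. Ager, the 1 lung marker tested, had 0.165 to 0.718 CPM in nicotine libraries and 0.432 to 1.27 CPM in air libraries. All 8 libraries expressed the Y-linked Eif2s3y, at 58.3 to 66.7 CPM in nicotine libraries and 53.8 to 61.3 CPM in air libraries, with Xist at 1.32 to 5.29 CPM in nicotine libraries and 0.37 to 2.42 CPM in air libraries.

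The change with nicotine was then set against the same comparison in mice that started at 3 months, with the difference itself tested as 3-week minus 3-month change. At the 3-month start 0 genes passed by edgeR's quasi-likelihood test, with 408 at an unadjusted p under 0.05. The difference passed for 21 genes (0.135% of those tested), 5 positive and 16 negative, and 14 of them were among the 126. All 21 had changes of opposite sign at the 2 starting ages, which picking genes by a large difference favours. Of the 112 lower genes, 90 had a positive change at the 3-month start and 22 a negative one, where 46.7% of all genes tested were negative. Of the 14 higher genes, 11 were negative there.

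Cd93 changed by -0.88 ± 0.12 at the 3-week start and 0.15 ± 0.12 at the 3-month start, a difference of -1.02 ± 0.17 (adjusted p = 0.0213). Its levels at the 3-month start were 163 to 189 CPM in nicotine libraries, 139 to 156 CPM in vehicle libraries and 141 to 175 CPM in air libraries, all above the nicotine range of the 3-week start. Col4a1 changed by -0.87 ± 0.14 and 0.14 ± 0.14, a difference of -1.01 ± 0.19 (adjusted p = 0.0302). The difference for Col4a2 was -0.90 ± 0.19 and did not pass (adjusted p = 0.0501). At the 3-month start Col4a1 had 633 to 671 CPM in nicotine, 387 to 447 CPM in vehicle and 469 to 649 CPM in air libraries. Col4a2 had 493 to 520 CPM in nicotine, 290 to 336 CPM in vehicle and 394 to 502 CPM in air libraries of that start. For both genes every vehicle library was below every air library there. Rit1 changed by 0.61 ± 0.10 and -0.26 ± 0.10, a difference of 0.87 ± 0.14 (adjusted p = 0.0213), with 45.5 to 54.5 CPM in nicotine libraries and 48.5 to 68.95 CPM in air libraries of the 3-month start.

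Vwc2, a secreted modulator of bone morphogenetic proteins, had 4.83, 5.76, 5.42 and 3.63 CPM in nicotine libraries, against 3.39, 3.36, 2.15 and 2.08 CPM in air libraries of the 3-week start. It did not pass at either start (adjusted p = 0.0559 at 3 weeks), while the difference of 1.67 ± 0.28 did (adjusted p = 0.0213). Abra changed by -1.04 ± 0.24 and 0.99 ± 0.23, a difference of -2.03 ± 0.33 (adjusted p = 0.0213), and Zc3h6 by 0.64 ± 0.13 and -0.45 ± 0.13, a difference of 1.09 ± 0.19 (adjusted p = 0.0213). Nr4a3 and Atf3 differed by -6.09 ± 1.13 and -4.96 ± 0.94 (adjusted p = 0.0302 for both). The difference passed for 1 gene without air libraries 1 and 5, and leaving out any library of the 4 groups in turn gave 0 to 206 genes.

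**Figure D5:**
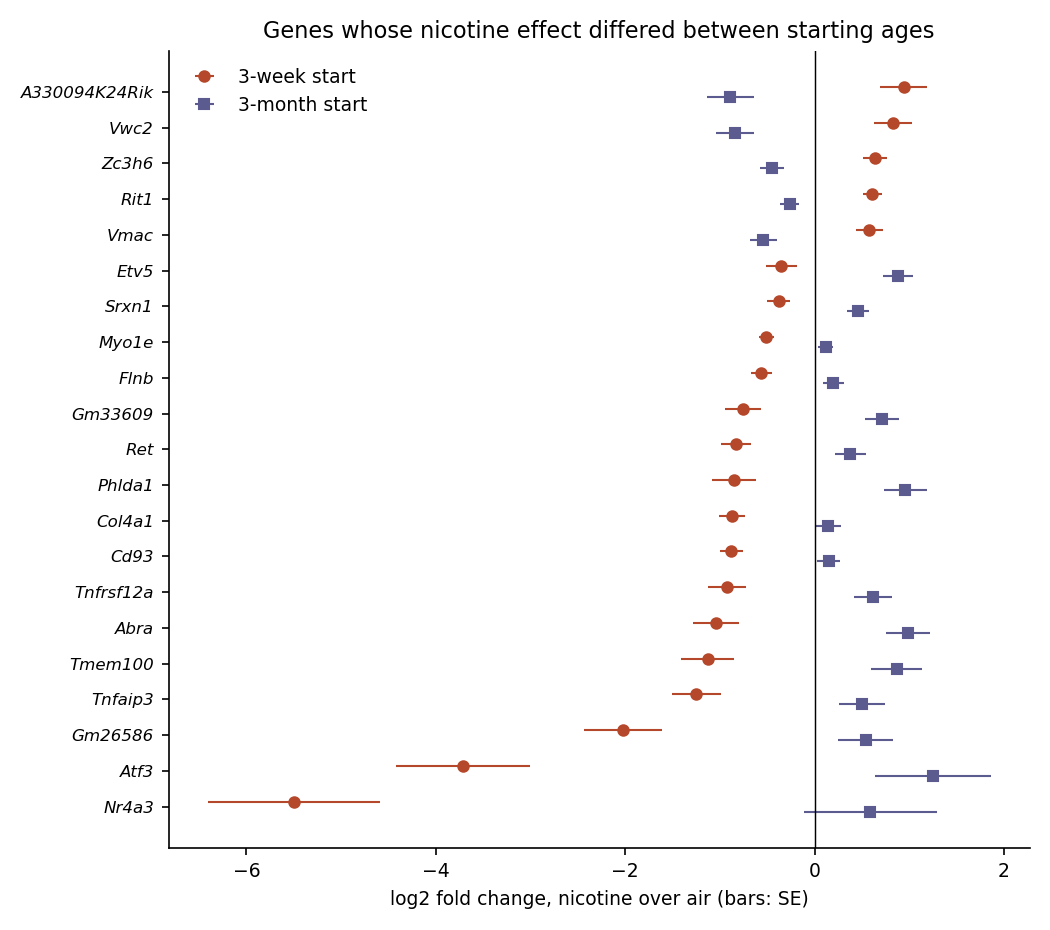
Log2 fold change, nicotine over air, at the 3-week start (circles) and the 3-month start (squares) of the 21 genes whose difference passed the threshold; bars are SE. Each gene lies on opposite sides of 0 at the 2 starts, which selection by the difference favours. Nr4a3 is at -5.5 and Rit1 at 0.61 for the 3-week start.

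The authors' deposited table of this comparison listed 138 genes at an adjusted p under 0.05, of which 81 were among the 126. In the authors' deposited table Cd93 had a log2 fold change of -0.89 (adjusted p = 5.02e-07) and Col4a1 one of -0.88 (adjusted p = 2.09e-08). Slc41a3 and Rit1 stood there at -1.15 (adjusted p = 2.07e-12) and 0.59 (adjusted p = 0.000232), and Thbs1 at -6.01 (adjusted p = 0.00145), all from the authors' deposited table.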

How the data were processed

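The labels describe Trizol extraction of frozen left ventricles and standard Illumina library preparation. The tools named in the submitters' processing notes are Trimmomatic 0.36, STAR 2.5.2b, Subread 1.5.2 with featureCounts, and DESeq2. Genome build, annotation and strandedness are not stated there. The deposited count table of 23 libraries holds raw counts and 0 columns outside them. The authors' deposited table of this comparison gives log2 fold changes and adjusted p-values. Its signal columns, deposited counts divided by a size factor, served to match columns to libraries. Other deposited tables were not used here.

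The analysis used edgeR 4.0.16 in R 4.3.3, with filterByExpr at a minimum count of 10, TMM scaling, and a robust quasi-likelihood fit of 6 groups over 23 libraries with 17 residual degrees of freedom. The Benjamini-Hochberg adjustment ran over 15500 genes. Alternatives used limma 3.58.1 and DESeq2 1.42.0, RLE scaling, other filters, a length offset, the replicate number as a block, fits on 8 and 11 libraries, and left-out libraries. Symbols came from GENCODE vM21 by gene ID for 49056 genes. Promoter windows came from RefSeq by symbol, and 81 of the 126 genes past the threshold had one. Depth, at 12297955 counts or more per library, limits genes with few counts, whose fold changes depend on edgeR's prior count.

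Genes named are, for each direction, the 12 past the threshold of 0.05 with the smallest p and an average log2 CPM no lower than 1, up to 4 genes past the threshold per list (of a list with no call, the gene with the smallest p), those past it without air libraries 1 and 5, the 5 leading age differences, and followed cardiac genes. Predicted gene models are counted, not named. Lama4, Nid2, Hspg2, Plod1, Pecam1, Cdh5, Nr4a1, the globins and the receptors were named for their role after their values were seen. The libraries compared, the 43 gene lists and the tests were chosen with earlier results of these data known.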

Additional observations from a re-analysis of the deposited data

Results flagged for a closer look

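In 12 named genes the change with nicotine differed between the 3-week and the 3-month start by the test of the difference in edgeR's quasi-likelihood fit. The differences (3-week minus 3-month log2 fold change) were positive for Rit1 (0.87), Zc3h6 (1.09), Vmac (1.12) and Vwc2 (1.67). They were negative for Cd93 (-1.02), Col4a1 (-1.01), Myo1e (-0.63), Tnfaip3 (-1.76), Abra (-2.03) and Srxn1 (-0.84), and largest in size for Nr4a3 (-6.09) and Atf3 (-4.96). The adjusted p ran from 0.0213 for Rit1 to 0.0486 for Tnfaip3.

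A library lay far from the others of its group in 8 of 172 groups of 4 libraries looked at, where chance gives about 1 in 20. Nicotine library 5 was the highest of its group for Atf3, at 7.74 CPM, and for Srxn1, at 28 CPM, and the lowest for Actc1, at 6552 CPM, and Pfkfb1, at 19.96 CPM. Nicotine library 6 was lowest for Arc, at 2.29 CPM, and nicotine library 3 for Tnfaip3, at 3.62 CPM. Air library 2 was highest for Hspa1a, at 10.2 CPM, and air library 4 lowest for Nppb, at 195 CPM.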

How the results depend on the processing

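The count of 126 genes was 181 with RLE scaling, 94 at a minimum count of 30, 119 without the robust fit and 155 with a length offset. It was 76 (5 higher, 71 lower) with no filter on low counts and 478 (59 higher, 419 lower) with DESeq2. It was 0 (0 higher, 0 lower) in the fits on 8 and on 11 libraries, 6 (0 higher, 6 lower) with voom and sample quality weights, and 11 (0 higher, 11 lower) without air libraries 1 and 5. Leaving out each library in turn gave 1 to 362 genes, 0 to 49 higher and 1 to 313 lower. Without air library 1 the count was 1, without air library 5 it was 16, without air library 2 it was 352 and without air library 4 it was 362. Without nicotine library 2, 3, 5 or 6 in turn it was 29, 4, 10 and 36. The 21 differences between starting ages were 36 with RLE scaling, 213 with DESeq2, 51 with a length offset, 1 without air libraries 1 and 5, and 0 to 206 with each library left out in turn. Counts of genes whose libraries did not overlap moved by less than 1.5 times under RLE scaling and the stricter filter.

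Replicate numbers 2 and 5 occur in both groups, and the deviations of these libraries correlated at 0.234 and 0.109, which with 2 pairs does not show a pairing; other pairs ranged from -0.453 to 0.372. With the replicate number as a block, which left 12 residual degrees of freedom, 6 genes passed (0 higher, 6 lower), Cd93, Col15a1, Ret, Col4a1, Col4a2 and Pde10a, and 0 differences between ages.

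Of the 126 genes 1 turned, Csrnp1, at 0.12 without air libraries 1 and 5. Other directions turned for genes that had not passed. Kcna5 was at 0.07, Myh6 at 0.1, Atp2a2 at 0.13 and Pdk4 at 0.31 without air libraries 1 and 5. With each library left out in turn Myh6 ran from -0.15 to 0.02 and Atp2a2 from -0.45 to 0.06, both positive without air library 1, and with sample quality weights Myh6 was at 0 and Pdk4 at 0.12. The median over all genes stayed between -0.01 and 0.03 in all settings. The causes were not tested.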

Other observations

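The nicotine libraries fell into pairs for genes of calcium handling. The summed level of the 17 genes tested was 14989.5, 27702, 15405 and 28738 CPM in nicotine libraries 2, 3, 5 and 6, and 11966, 11779 and 22414 CPM in vehicle libraries 1, 2 and 4, against 33336, 18877, 20174 and 22814 CPM in air libraries 1, 2, 4 and 5. Nicotine libraries 2 and 5 are also those in which levels correlated negatively with transcript length. Nuclear genes of oxidative phosphorylation ran the other way, with 42392, 39510.2, 40518 and 37419 CPM in the same nicotine libraries.

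Vehicle library 2 stood apart from the other vehicle libraries for inducible and atrial genes. Immediate early genes summed to 3163 CPM there and to 1299 and 1112 CPM in vehicle libraries 1 and 4, with 948 to 1582 CPM in nicotine libraries and 932 to 4274 CPM in air libraries. Nppa was at 323 CPM in vehicle library 2, and at 95.3 and 139.7 CPM in vehicle libraries 1 and 4. Vehicle library 1 had the highest level of red cell markers of the 11 libraries, at 2393 CPM in sum. Myh11, smooth muscle myosin, had 99.4, 60.8, 277 and 110.0 CPM in nicotine libraries, with library 5 the highest, against 103, 82.9, 73.4 and 84.9 CPM in air libraries (log2 fold change 0.67 ± 0.31, adjusted p = 0.374 by edgeR's quasi-likelihood test).

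Genes of nerves and Schwann cells were higher without passing. All 6 tested had a positive change, with a median of 0.43, or 0.37 without air libraries 1 and 5.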
